A study of Mus musculus with 16 samples.

Results

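The genes that encode the 14-3-3 proteins were followed through RNA sequencing libraries of the mouse dorsal hippocampus. The rows of 6 gene symbols were taken, Ywhag, Ywhah, Ywhab, Ywhae, Ywhaz and Ywhaq, out of 24972 genes in each library. Samples were 16 libraries of microdissected CA1, CA3 and dentate gyrus (DG), made from 3 trained and 3 untrained mice. Each subregion was represented by 3 trained mice, and by 3 untrained mice for CA1 and 2 for each of the others. All animals, trained and untrained, were ArcCreERT2::eYFPflx mice of both sexes on a C57BL/6 background, aged 3 to 4 months, in which Cre is driven by the Arc promoter. Trained mice learned active place avoidance, in which a rotating arena carries the animal towards a shock zone that it must leave. Untrained mice were placed in the same arena with the shock off. All were tested for retention for 10 min at 24 h after training, and tissue was taken 60 min later. The pieces of one subregion were pooled within each animal, so a library holds neurons, glia and vessels together.

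14-3-3 proteins are small, abundant adaptor proteins that work as dimers. Each subunit of the dimer has a groove that binds partners phosphorylated on serine or threonine, and the binding can hide a localization signal, block an active site or keep a partner in the cytoplasm. Mammals have 7 such genes: Ywhag (gamma), Ywhah (eta), Ywhab (beta), Ywhae (epsilon), Ywhaz (zeta), Ywhaq (theta, also called tau) and Sfn (sigma), the last of which is mainly epithelial and is not a member here. In neurons the proteins are concentrated at synapses, where they bind ion channels, kinases and regulators of transcription such as the CREB coactivator CRTC1.

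In GRCm38, Ywhag lies on the minus strand of chromosome 5 from 135908409 to 135934616, and Ywhah on the plus strand of the same chromosome from 33018816 to 33027966. Ywhab is on chromosome 2 (163994960 to 164018588), Ywhae on chromosome 11 (75732869 to 75765845), Ywhaz on chromosome 15 (36770770 to 36796929) and Ywhaq on chromosome 12 (21390071 to 21417637). The coding sequences of the 6 genes were between 738 and 768 bases long. Ywhag and Ywhah had the highest pairwise identity, 78.95% over 741 aligned bases, and Ywhae and Ywhaq the lowest, 63.82%. The longest stretches shared without a mismatch along the aligned coding sequences are shown, since a read inside them is common to a pair of members. Untranslated parts of the transcripts were not compared, so these stretches set no limit on shared reads. All 3 are coding sequence, and none exceeded 30 bases:

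Ywhag and Ywhah: gagcaggcggagcgctacgacgatatggcc

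Ywhab and Ywhaz: taccaagaagcatttgaaatcagcaa

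Ywhaz and Ywhaq: cagaaggccaagctggccgagcaggc

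The upstream sequences of Ywhag and Ywhah are shown because these 2 members moved together below. The 250 bases before the RefSeq start of each gene (GRCm38.p6) are printed 5′ to 3′ on the strand of the gene, chr5:135934642-135934891 for Ywhag (minus strand) and chr5:33018566-33018815 for Ywhah (plus strand), with the letters of the cAMP response element in capitals:

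Ywhag: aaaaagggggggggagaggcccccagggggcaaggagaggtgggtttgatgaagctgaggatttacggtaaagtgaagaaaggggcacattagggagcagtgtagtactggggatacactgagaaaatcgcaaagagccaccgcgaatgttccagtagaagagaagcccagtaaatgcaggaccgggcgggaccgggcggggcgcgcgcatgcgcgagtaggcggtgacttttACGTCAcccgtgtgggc

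Ywhah: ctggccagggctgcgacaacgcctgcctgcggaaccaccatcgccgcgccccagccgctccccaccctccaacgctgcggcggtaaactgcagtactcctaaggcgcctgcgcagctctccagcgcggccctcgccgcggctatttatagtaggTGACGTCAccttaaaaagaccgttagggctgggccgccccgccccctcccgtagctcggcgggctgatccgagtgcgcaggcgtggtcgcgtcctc

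The full palindrome TGACGTCA stood 96 bases upstream of the Ywhah start and is found in 1.55% of 32851 such promoter windows. The core ACGTCA, which the palindrome contains and which was searched on both strands, stood 17 bases upstream of the Ywhag start and is found in 6.47% of windows. The windows of Ywhae and Ywhaq held neither set of letters. The GC box GGGCGG was in the windows of Ywhag, Ywhah and Ywhae (32.74% of all windows), and the TATA box TATAAA in that of Ywhah (12.37%), both searched on both strands. The windows of Ywhab and Ywhaz were not analysed here. A match of letters is a description of the window and no evidence of binding.

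The deposited values are normalized estimated counts, and their sums per library lay between 7607326 and 7984931. The spacing of low values put the approximate number of reads per library at 2550000 to 14910000, and that for Ywhaq, the lowest member, at 528 to 3354. The number of genes listed at 0 was 3124 to 9759. It was 8323 to 9759 in trained against 3124 to 5425 in untrained CA1, and the other way round in DG (3479 to 5944 in trained, 7567 to 8636 in untrained). Xist, transcribed from the inactive X chromosome, was 7601 to 19592 in all 9 trained libraries and 25.5 to 52.4 in 6 of 7 untrained ones, while the Y-linked Ddx3y was 448 to 553 in those 6. The exception was the library labelled as the first untrained CA3, with an Xist value of 10587 and a Ddx3y value of 201, although CA1 and DG labelled as the same animal were low in Xist. The library labelled as the third trained DG also had both, with an Xist value of 7601 and a Ddx3y value of 255, and Ddx3y was at most 101 in the other trained libraries. Whether these 2 libraries hold RNA of more than 1 animal was not tested. The methods place mice of both sexes in each training group, which these levels do not show. Markers of the subregions also moved with training: the summed value of 5 CA1 markers was 3222 to 5210 in untrained and 1599 to 1986 in trained CA1. The summed value of 5 CA3 markers went the other way there, from 524 to 604 in untrained to 895 to 949 in trained CA1, with Bok, Cdh24 and Grik4 called higher and Coch lower, and it was also higher without overlap in trained CA3 (1076 to 1301 against 642 and 894) and trained DG (964 to 1134 against 869 and 894). In DG the summed value of 5 DG markers was 6761 to 7122 in trained against 8070 and 8482 in untrained libraries, with Prox1 called lower. By these markers the labelled subregions were at most partly separated: 4 of 5 CA1 markers were called higher (adjusted p under 0.05, limma) in CA1 than in CA3, but 0 of 5 were called higher in CA1 than in DG, and 0 of 5 DG markers were called between CA1 and DG. Between CA3 and DG 0 of 5 markers were called in each of the CA1, CA3 and DG lists. The summed DG markers were 7633 and 9320 in untrained CA3, around the values of untrained DG. The part of these differences in the results below was not tested beyond the fits named beside them.

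All 6 members were abundant in every library. By mean value per kb of the longest coding transcript over the 16 libraries, Ywhaz was 35th of 24464 genes, Ywhah 37th, Ywhae 68th, Ywhag 71st, Ywhab 170th and Ywhaq 463rd. Sfn, the seventh gene, stood at 12668, with values before division by length from 0 to 16.1. Together the 6 members made up 0.435 to 0.533% of the summed value of a library. On the scale per kb Ywhaz had 3642 ± 139 (SD, n = 16) and Ywhah 3564 ± 510, followed by Ywhae with 2400 ± 142, Ywhag with 2376 ± 336, Ywhab with 1420 ± 80.2 and Ywhaq with 744 ± 56.4. The libraries of Ywhaz and Ywhah overlapped on this scale, as did those of Ywhae and Ywhag. Ywhae and Ywhag were above Ywhab, and Ywhab above Ywhaq, in all 16 libraries.

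The order within both overlapping pairs differed by training group. Per kb, Ywhah was above Ywhaz in 7 of 9 trained and in 0 of 7 untrained libraries. Ywhag was above Ywhae in 8 of 9 trained and in 0 of 7 untrained libraries. Ywhag and Ywhah together took 42.2 to 45.9% of the summed value per kb of the 6 members in trained libraries and 37.3 to 40.7% in untrained ones, so these ranges did not overlap. The share of Ywhaz was 24.8 ± 0.722% (SD) over the 9 trained and 27.2 ± 0.844% (SD) over the 7 untrained libraries, while its own values were 12088 ± 308 and 11831 ± 596. Shares of one sum are tied to each other, so a gain of one member lowers the rest.

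**Figure D1:**
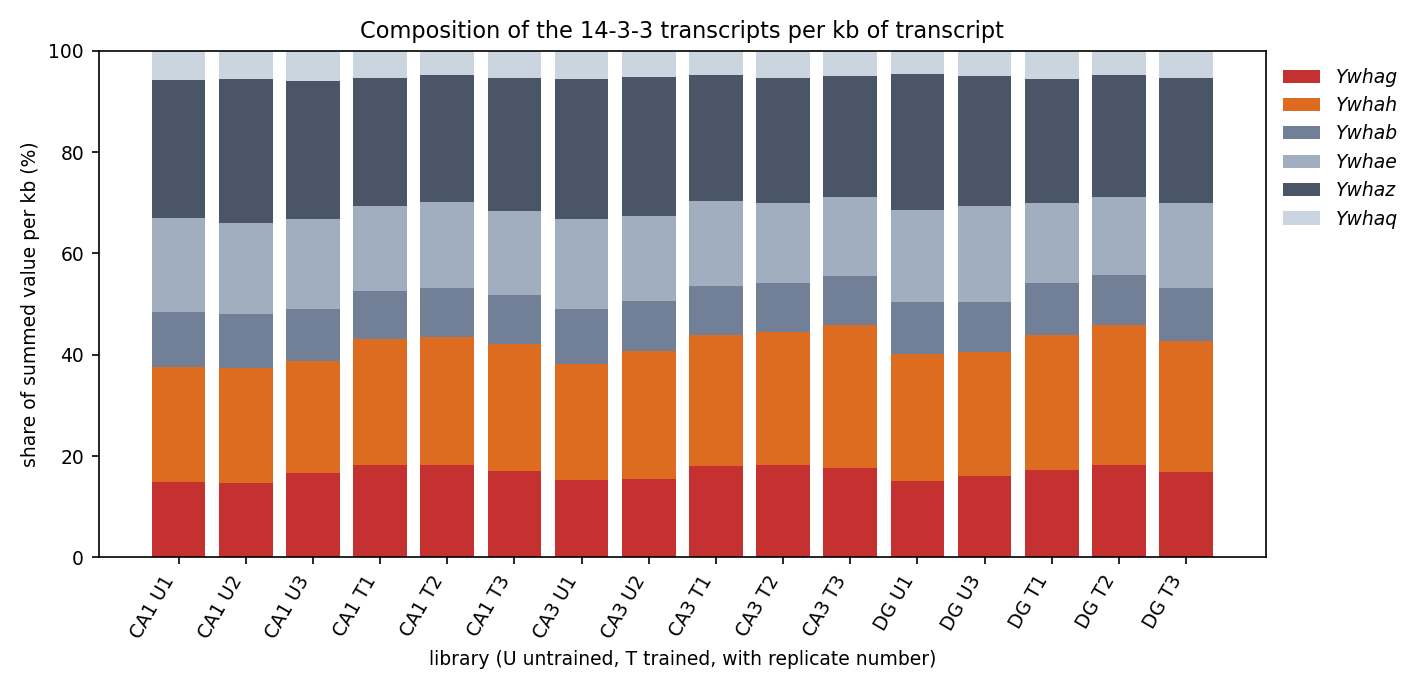
Stacked bars give, for each of the 16 libraries on the x axis, the share (%) of each 14-3-3 gene in the summed value per kb of the 6 genes. The red and orange parts at the foot, Ywhag and Ywhah, reach 42.2 to 45.9% in trained libraries and 37.3 to 40.7% in untrained ones.

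Trained and untrained mice were compared to find the transcripts that differed after the retention test. Ywhag and Ywhah were higher in trained mice, and Ywhab, Ywhae, Ywhaz and Ywhaq did not pass the test in any subregion. With a correction for GC content and transcript length, Ywhae in CA1 (log2 fold change 0.15, adjusted p = 0.0469) and Ywhab in the combined fit (0.12, adjusted p = 0.048) also passed, and Ywhag in DG did not (0.22, adjusted p = 0.123). With a covariate of sex-linked transcripts or of neuronal markers, neither Ywhag nor Ywhah was called, as given below. Upper-quartile rescaling also took their calls in CA1 and in the combined fit. A gene was called where limma on log2(value + 2) gave a Benjamini-Hochberg adjusted p under 0.05 over all genes tested. In CA1, 2 of the 6 members were called, both higher, against 5.23% of all 13588 genes tested (3.53% called higher). In CA3 limma called 0 of 6, against 0.852% of genes (0.737% higher), and 2 of 6 had an unadjusted p under 0.05, against 15.8% of genes. In DG 1 of 6 was called, and higher, against 3.39% (1.74% higher). With the 3 subregions in one fit, 2 of 6 were called, both higher, against 10.3% (6.28% higher).

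Ywhag, whose protein binds and regulates kinases and channels in neurons, had the smallest p of the 6 in the combined fit. In CA1 its values were 9164, 8996 and 8514 in the trained mice and 6558, 6482 and 7445 in the untrained mice. The lowest trained value exceeded the highest untrained one, with means of 8891 ± 338 and 6829 ± 535 (SD, n = 3 each). The log2 fold change was 0.38, with a 95% interval of 0.28 to 0.49 and a standard error of 0.051 (adjusted p = 0.000182, limma), a rise of 30.4%.

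In CA3 Ywhag was 9087, 9675 and 9791 in trained mice and 6756 and 7729 in untrained mice. The groups again did not overlap. The log2 fold change was 0.40 (standard error 0.079, interval 0.22 to 0.57), as large as in CA1, but with a limma adjusted p of 0.0510 it was not called. In DG Ywhag was 9033, 10001 and 9029 in trained mice and 7163 and 8406 in untrained mice, without overlap. The log2 fold change was 0.27 (standard error 0.069, interval 0.12 to 0.42), and the limma adjusted p of 0.0497 lay just inside the threshold. It was outside it in 4 of the 5 fits that left out 1 animal: the log2 fold change was 0.29, 0.22 and 0.29 without trained replicate 1, 2 and 3 (adjusted p = 0.101, 0.201 and 0.111) and 0.15 without untrained replicate 1 (adjusted p = 0.216). Without untrained replicate 3 it was 0.38 (adjusted p = 0.00159). Over all subregions the mean of Ywhag was 9254 ± 471 (SD) for the 9 trained and 7220 ± 697 (SD) for the 7 untrained libraries. The log2 fold change was 0.35, with an interval of 0.26 to 0.44 (adjusted p = 6.32e-05, limma), which placed Ywhag 6th of 14673 genes by p-value.

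Ywhah, the member closest to Ywhag in coding sequence, moved with it. In CA1 it was 6275, 6293 and 6326 in the trained mice and 5088, 4979 and 4966 in the untrained mice. The 2 groups were far apart for their spread, with means of 6298 ± 25.7 and 5011 ± 66.8 (SD, n = 3 each). The log2 fold change was 0.33 (standard error 0.041, interval 0.24 to 0.42, limma adjusted p = 7.14e-05), a rise of 25.7%.

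In CA3 Ywhah was 6533, 6952 and 7872 in trained mice and 5045 and 6343 in untrained mice. No untrained library reached a trained one, but the spread was wide, and the log2 fold change of 0.33 (standard error 0.111, interval 0.08 to 0.58) was not called (limma adjusted p = 0.203). The lower untrained value belongs to the library with the unexpected Xist level, and without that animal the log2 fold change was 0.16 (adjusted p = 0.79). For Ywhag in CA3 the same step gave 0.30 (adjusted p = 0.412). In DG Ywhah was 6954, 7553 and 7026 in trained mice and 6005 and 6388 in untrained mice, also without overlap. The log2 fold change was 0.21 (standard error 0.0568, interval 0.09 to 0.33), and it was not called (limma adjusted p = 0.0511). With all subregions in one fit the log2 fold change was 0.29, with an interval of 0.20 to 0.39 (adjusted p = 0.000369, limma).

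Without the first untrained CA3 and the third trained DG library, the combined log2 fold change was 0.34 for Ywhag (limma adjusted p = 0.000157) and 0.26 for Ywhah (adjusted p = 0.00122). The same 2 members were called. The trained CA1 and CA3 libraries with Ddx3y values of 70.9 to 101 stayed in this fit. With a score of sex-linked transcripts as a covariate, which set 4 Y-linked genes (averaged in log2) against Xist, 0 members were called in the combined fit and in each subregion. The combined log2 fold changes were then 0.44 for Ywhag (adjusted p = 0.0901) and 0.51 for Ywhah (adjusted p = 0.0502). Ywhag was at 0.28 in CA1, 0.57 in CA3 and 0.07 in DG (adjusted p = 1, 0.0588 and 1), and Ywhah at 0.37, 0.67 and 0.10 (adjusted p = 1, 0.0519 and 1). This fit called 0 of 14673 genes in all, with 1702 at an unadjusted p under 0.05. In CA1 and in DG every trained library was high and every untrained one low in Xist, so there the training group and the sex-linked transcripts cannot be told apart.

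**Figure D2:**
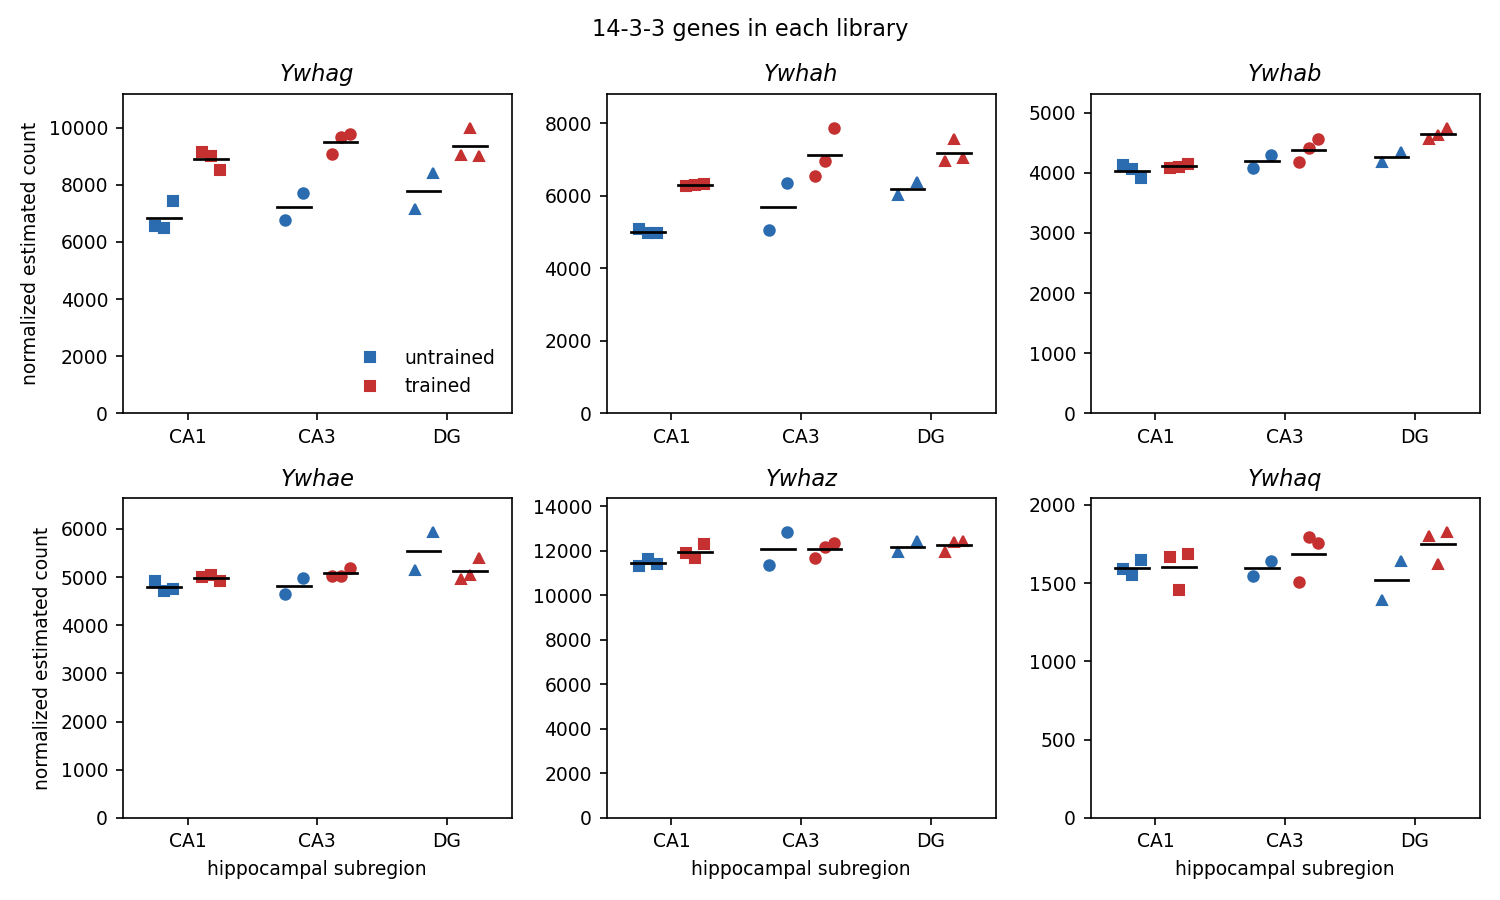
Each panel gives the normalized estimated count of one 14-3-3 gene (y axis, from 0) in CA1, CA3 and DG (x axis); each point is a library, blue untrained and red trained, and black lines are group means. For Ywhag and Ywhah the red points lie above the blue ones in all 3 subregions, while for the other 4 genes the groups lie close together or overlap in at least 1 subregion.

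The 4 other members are common partners of signalling proteins in most tissues. Ywhab, which binds signalling kinases, was 4090 to 4152 in trained and 3919 to 4125 in untrained CA1, and 4177 to 4566 against 4088 and 4293 in CA3, with overlap in both. In DG its values were 4568, 4632 and 4751 in trained mice against 4188 and 4346 in untrained mice. These DG groups did not overlap, but a log2 fold change of 0.12 with an interval of 0.01 to 0.24 was not called (adjusted p = 0.228, limma), and the combined value was 0.07 (interval 0.00 to 0.14, adjusted p = 0.193).

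Ywhae, which binds the dynein partner NDEL1 in migrating neurons, was 4923 to 5033 in trained and 4708 to 4909 in untrained CA1, and 5023 to 5178 in trained against 4655 and 4982 in untrained CA3. Trained libraries were above untrained ones in both. In DG the values were 4953, 5036 and 5396 in trained mice and 5142 and 5927 in untrained mice, so the groups overlapped and the mean lay on the other side. The log2 fold changes were 0.06, 0.08 and −0.11 in CA1, CA3 and DG (limma adjusted p = 0.503, 0.636 and 0.400). With 1 animal left out, the DG value spanned −0.21 to −0.0048. The combined value was 0.01 (interval −0.07 to 0.09, adjusted p = 0.876).

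Ywhaz, a broadly expressed member, was 11648 to 12319 in trained and 11291 to 11617 in untrained CA1, without overlap. In CA3 (11672 to 12366 against 11334 and 12823) and DG (11951 to 12430 against 11954 and 12418) the groups overlapped. The combined log2 fold change was 0.03 (interval −0.04 to 0.09, limma adjusted p = 0.645). Ywhaq overlapped in all 3 subregions. It was 1456 to 1685 in trained and 1551 to 1650 in untrained CA1, 1509 to 1798 against 1549 and 1643 in CA3, and 1623 to 1825 against 1395 and 1642 in DG. Its log2 fold change in DG was 0.21, like that of Ywhah there, but with a wider interval of 0.04 to 0.38 (adjusted p = 0.165, limma). With 1 animal left out, this value spanned 0.09 to 0.32, against 0.17 to 0.26 for Ywhah. The combined value was 0.09 (interval −0.02 to 0.19, adjusted p = 0.283). A search of the annotation by gene name found 3 processed pseudogenes of Ywhaq, so its level is uncertain by the reads they may share. Pseudogenes of any member under other names were not searched for.

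**Figure D3:**
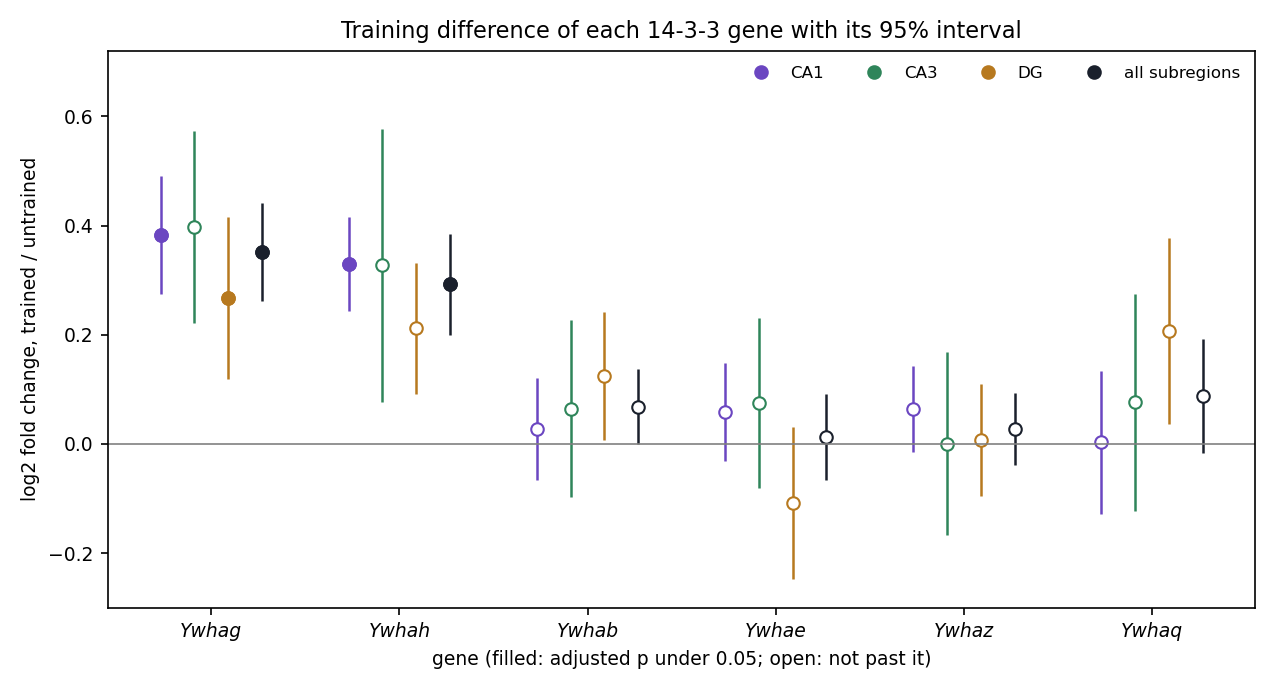
Points are log2 fold changes of trained over untrained mice (y axis) for each 14-3-3 gene (x axis) in CA1, CA3, DG and all subregions together, with 95% intervals as bars; filled points passed an adjusted p of 0.05. Only 5 points are filled, Ywhag in CA1, DG and the combined fit and Ywhah in CA1 and the combined fit, and both genes sit at 0.21 to 0.40 throughout.

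By non-overlap alone, 4 members lay higher in trained than in untrained libraries in CA1, 3 in CA3 and 3 in DG, against 12.9%, 17.2% and 17.5% of the genes tested. In all 3 subregions at once this held for 2 members, Ywhag and Ywhah, against 1.62% of 14673 genes. A rescaling to equal upper quartiles of nonzero values, which moved the median log2 fold change of all genes to −0.47 in CA1, gave log2 fold changes there of −0.10 for Ywhag and −0.15 for Ywhah. Relative to that median they were 0.38 and 0.32.

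Neuronal markers were also higher in trained CA1. There, 7 of 9 (Snap25, Stmn2, Slc17a7, Nefm, Rbfox3, Nefl and Syt1) were called higher in trained mice and 0 lower, with a median log2 fold change of 0.27 against 0.00 for all genes. In CA3 and in DG 0 of 9 were called, with medians of 0.32 and 0.07. In DG 5 of them (Snap25, Tubb3, Nefl, Stmn2 and Slc17a7) lay wholly above and 1 (Map2) wholly below the untrained values, where 17.5% of all genes tested lay wholly above. In CA3 Rbfox3, Snap25, Nefl, Nefm and Slc17a7 lay wholly above and the others overlapped, against 17.2% of genes wholly above. Their summed value was 56894 to 57708 in trained and 48476 to 50516 in untrained CA1, 58285 to 65360 against 51546 and 56810 in CA3, and 59229 to 61502 against 57235 and 60821 in DG. Among oligodendrocyte and microglial markers 0 of 6 each were called in any subregion, with oligodendrocyte medians of −0.25, 0.25 and −0.20 in CA1, CA3 and DG. Of 6 interneuron markers Sst was called higher in CA3, of 4 choroid plexus markers Ttr and Clic6 were called lower in CA3 (Ttr 66.2 to 72.4 in trained against 560 and 834 in untrained libraries), and of 4 endothelial markers Flt1 was called lower in DG (172 to 191 against 306 and 390). Of 6 astrocyte markers 0 were called higher in each of the 3 subregions, and the astrocyte water channel gene Aqp4 was called lower in CA1, by 0.35 on the log2 scale. The median of the 6 astrocyte markers there was −0.02, and the glutamate transporter gene Slc1a2, which was not called, was 51665 to 53130 in trained against 48524 to 50197 in untrained CA1. In the combined fit 5 of 9 neuronal markers (Nefl, Nefm, Slc17a7, Snap25 and Stmn2) were called higher and 0 lower, against 6.28% of genes called higher. Of 6 interneuron markers Slc32a1 was called higher there. Of 6 astrocyte markers 0 were called higher there, and Aqp4 and Gja1 were called lower (log2 fold changes −0.30 and −0.18). In bulk tissue, more cells of a type and more RNA per cell cannot be told apart. Ywhag was 14.75 to 16.11% of the neuronal sum in trained and 12.98 to 14.80% in untrained CA1, 14.98 to 15.59% against 13.11 and 13.60% in CA3, and 15.20 to 16.26% against 12.52 and 13.82% in DG. The groups overlapped in CA1 and not in CA3 or DG. Ywhah was 10.96 to 11.03% of that sum against 9.87 to 10.27% in CA1, 11.08 to 12.04% against 9.79 and 11.16% in CA3, and 11.70 to 12.28% against 10.49 and 10.50% in DG, with overlap in CA3.

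With the mean log2 value of the neuronal markers as a covariate, an alternative chosen after seeing the data, 0 members were called in any fit. The combined log2 fold change was 0.19 for Ywhag (limma adjusted p = 0.0688) and 0.11 for Ywhah (adjusted p = 0.322). In CA1 and in CA3, trained and untrained libraries did not overlap in the summed value of these markers. With this covariate Ywhag was at −0.13 and Ywhah at 0.36 in CA1 (adjusted p = 0.999 and 0.549). In CA3 they were at 0.23 and 0.01 (adjusted p = 0.0904 and 0.974), and in DG at 0.15 and 0.16 (adjusted p = 0.178 and 0.188).

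**Figure D4:**
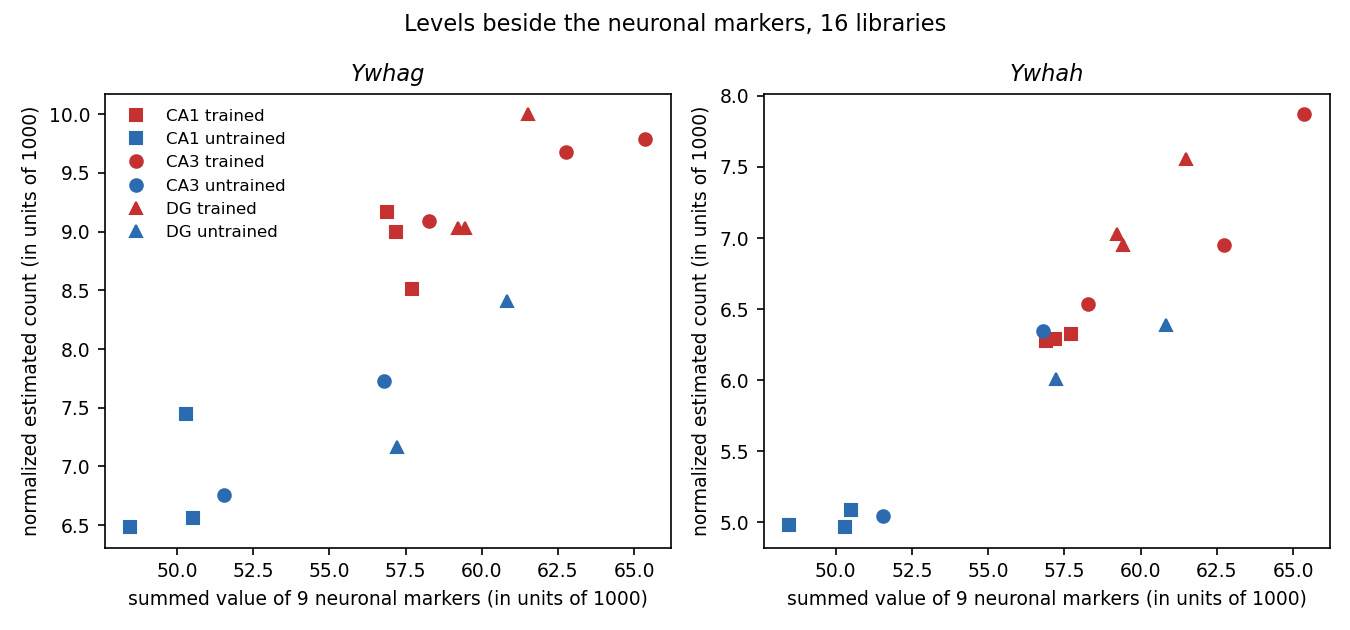
Each point is a library, with the summed value of 9 neuronal markers on the x axis and the normalized estimated count of Ywhag (left) or Ywhah (right) on the y axis, neither starting at 0. Over the 16 libraries the Pearson r of log2 values with the mean log2 value of these markers was 0.904 for Ywhag and 0.965 for Ywhah, and red (trained) points lie to the right of and above blue (untrained) ones of the same subregion for most pairs.

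The training effects were compared between subregions in one fit of 6 groups, to ask whether a member responded more in one field than in another. Limma called 0 of the 18 differences (6 members, 3 pairs of subregions). The share of all genes called was 0.0273% for CA1 minus CA3, 2.75% for CA1 minus DG and 0.164% for CA3 minus DG. Of the 18, 1 had an unadjusted p under 0.05 (Ywhae in CA3 minus DG), against 6.71%, 17.8% and 11.7% of genes in the same order. The effect in CA1 minus that in DG was 0.12 on the log2 scale for Ywhag (95% interval −0.09 to 0.32, limma adjusted p = 0.586) and 0.12 for Ywhah (−0.10 to 0.33, adjusted p = 0.594). For CA1 minus CA3 the values were −0.01 (−0.22 to 0.19) and 0.00 (−0.21 to 0.22), and for CA3 minus DG 0.13 (−0.09 to 0.35) and 0.12 (−0.11 to 0.34). The smallest adjusted p of the 18 was 0.293, for Ywhae in CA1 minus DG. The correction for GC content and length moved the median of all genes to 0.14 in CA1 minus DG and called 3 members there, Ywhae (0.37, adjusted p = 0.00758), Ywhah (0.32, adjusted p = 0.0398) and Ywhaz (0.27, adjusted p = 0.0277), with Ywhag at 0.31 (adjusted p = 0.0583).

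Between the subregions themselves, Ywhah was lower in CA1 than in DG and the other members did not pass the test. Averaged over training, 1 of 6 members was called between CA1 and DG (4.05% of 14673 genes), 0 between CA1 and CA3 (0.988%) and 0 between CA3 and DG (0.00682%). The numbers with an unadjusted p under 0.05 were 4, 1 and 1, against 19.6%, 10.2% and 6.86% of genes. Ywhah was lower in CA1, with 4966 to 6326 and a mean of 5654 ± 706 (SD, n = 6), than in DG, with 6005 to 7553 and a mean of 6785 ± 601 (SD, n = 5). Within untrained mice all 3 CA1 libraries were below both DG libraries, and within trained mice all 3 were below all 3. The log2 difference was −0.25, with an interval of −0.35 to −0.14 (adjusted p = 0.00947, limma). It was −0.19 (adjusted p = 0.101) from trained and −0.31 (adjusted p = 0.0632) from untrained libraries alone. It also lost its call without trained replicate 2 (adjusted p = 0.0968) and without untrained replicate 3 (adjusted p = 0.0831). With the correction for GC content and length it was −0.15 (adjusted p = 0.0795) and not called, and Ywhab was called in its place (−0.14, adjusted p = 0.0443).

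The other members also had lower means in CA1 than in DG, by differences that were not called. The log2 values were −0.13 for Ywhab (limma adjusted p = 0.0528), −0.12 for Ywhae (0.0922), −0.13 for Ywhag (0.146), −0.06 for Ywhaz (0.348) and −0.02 for Ywhaq (0.864). Between CA1 and CA3 Ywhah had the smallest p, with a log2 difference of −0.17 (interval −0.28 to −0.07, adjusted p = 0.137). Between CA3 and DG this was Ywhae, with −0.11 (adjusted p = 0.639). The neuronal markers Nefl and Snap25 were likewise called lower in CA1 than in DG, by 0.28 and 0.18 on the log2 scale, and 0 of 9 were called higher, while 3 of 4 endothelial markers (Cldn5, Flt1 and Slco1a4) were called higher in CA1, with a list median of 0.57.

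Pooled over the groups, members also deviated together. The deviation of each library from its group mean on the log2 scale was correlated between members over the 16 libraries, as a description, since libraries share their depth and tissue makeup. All 15 pairs had a positive r, from 0.25 for Ywhag with Ywhab to 0.83 for Ywhah with Ywhaz. Ywhag and Ywhah had an r of 0.63. In the untrained CA3 and DG groups of 2 libraries the deviations are equal and opposite by construction. The largest of Ywhah, −0.165 and 0.165, were those of untrained CA3, with −0.089 and 0.089 for Ywhaz. In CA1 Ywhah deviated by only −0.013 to 0.022, and the largest Ywhag deviation there, 0.128, came with −0.013 for Ywhah. The pooled r therefore does not describe each group. The mean of the neuronal markers deviated with the members as well, with an r of 0.915 for Ywhah, 0.804 for Ywhag, 0.773 for Ywhaz, 0.68 for Ywhab, 0.583 for Ywhaq and 0.54 for Ywhae.

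**Figure D5:**
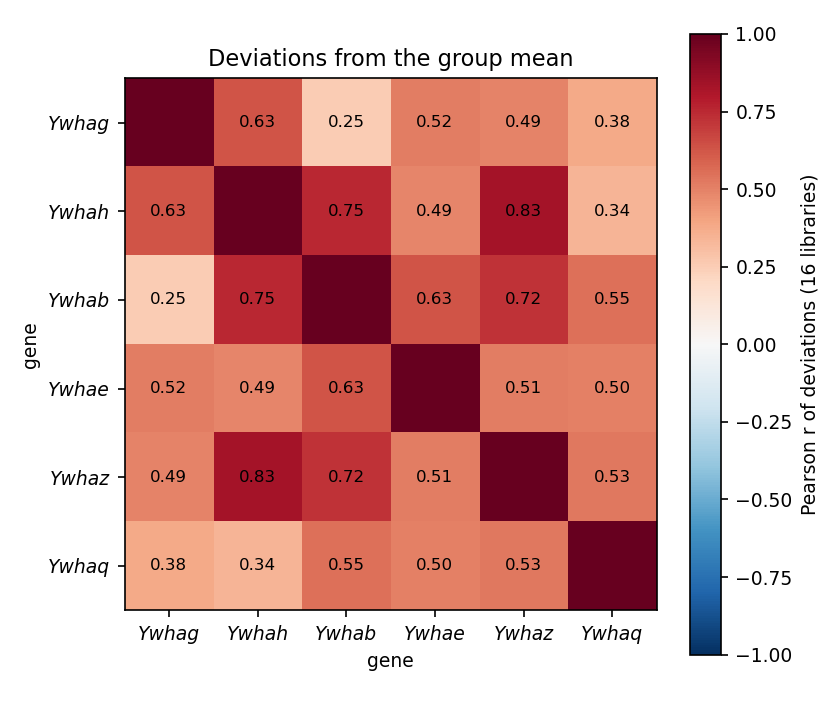
The grid gives the Pearson r (colour and number) between each pair of 14-3-3 genes, on both axes, of the deviations of 16 libraries from their group means on the log2 scale. All pairs off the diagonal are positive, from 0.25 (Ywhag and Ywhab) to 0.83 (Ywhah and Ywhaz).

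Among 10767 other genes with a mean value of at least 50, those whose log2 levels followed a member most closely over the 16 libraries were named. For Ywhag they were the ubiquitin hydrolase gene Uchl1 (r = 0.969), the postsynaptic scaffold gene Homer3 (0.966) and Lingo1 (0.965), which encodes a neuronal membrane protein. For Ywhah they were the small GTPase gene Rab15 (0.974), the synaptic vesicle gene Syn2 (0.973) and the endophilin gene Sh3gl2 (0.968). They were chosen over the same libraries as followers of called members, so their training differences are a description: in the combined fit all 6 were called higher, against 6.28% of genes, by 0.66, 0.67 and 0.46 on the log2 scale for Uchl1, Homer3 and Lingo1 and by 0.59, 0.36 and 0.34 for Rab15, Syn2 and Sh3gl2. The highest r was lower for the members that did not pass the test. Ywhab was followed by Prdx2, Tubb2a and Schip1 (0.949 to 0.926), the last pair of which was also called higher in the combined fit (0.18 and 0.16 on the log2 scale), Ywhaq by Atl1, Sccpdh and Prepl (0.89 to 0.812), Ywhae by Gng3, Dctn6 and Basp1 (0.868 to 0.855), and Ywhaz by Gsta4, Ap3m2 and Prelid1 (0.835 to 0.825).

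Genes for partners of the 14-3-3 proteins were called in both directions. Of 85 listed genes for clients, for kinases that write their phosphorylated binding sites and for phosphatases that remove them, 83 were tested. In CA1 4 were called higher and 3 lower, or 8.43% against 5.23% of all genes, and the median log2 fold change was 0.02 against 0.00. In CA3 1 was called (1.2%), in DG 1 (1.2%, against 0.852% and 3.39% of all genes), and in the combined fit 5 were higher and 4 lower (10.8% against 10.3%). No test of these shares was made.

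Among 13 client regulators of transcription, Crtc1, the coactivator of CREB that is held in the cytoplasm while phosphorylated, averaged 3053 in CA1 of trained mice and 2421 in CA1 of untrained mice. This was a rise of 0.33 (adjusted p = 0.000268, limma) in log2 units, and of 0.23 in the combined fit (adjusted p = 0.00446). Hdac5, a histone deacetylase exported from the nucleus in complex with 14-3-3 proteins, rose by 0.34 in the combined fit (883 against 702, adjusted p = 0.000879). The other 11 were not called in the combined fit.

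Of 13 tested clients among channels, receptors, synaptic and cytoskeletal proteins, Rims1, an organizer of the presynaptic active zone, rose by 0.34 in CA1 (2157 against 1703, limma adjusted p = 0.00158). The training effect of Rims1 in CA1 exceeded that in DG by 0.46 on the log2 scale (adjusted p = 0.0136). Map3k5, a stress-activated kinase among the signalling clients, was the other partner gene called in that comparison (0.51, adjusted p = 0.039), which made 2 of 83 or 2.41%, against 2.75% of all genes. Cacna1b, the N-type calcium channel, rose by 0.41 in CA3 (1742 against 1316, adjusted p = 0.0324) and by 0.22 in the combined fit. Of 19 tested signalling clients, Map3k5 rose by 0.31 (452 against 363, adjusted p = 0.0471) and Ksr1, a scaffold of a kinase cascade, fell by 0.25 (1180 against 1397, adjusted p = 0.0395) in CA1.

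Of 28 kinases, Camk2a, a calcium-dependent kinase of excitatory synapses, rose by 0.18 in CA1 (48617 against 42897, limma adjusted p = 0.00491), and Sik2, a kinase that phosphorylates CRTC proteins, fell by 0.37 (192 against 248, adjusted p = 0.0451). In the combined fit Sik2 fell by 0.38 and Lats1 by 0.25, while Mark1 rose by 0.18 and Stk11 by 0.20. Of 10 phosphatase genes, Ppp3ca, a catalytic subunit of calcineurin, was the 1 called. It fell by 0.17 in CA1 (18485 against 20731, adjusted p = 0.0144), by 0.22 in DG (18746 against 21816, adjusted p = 0.0173) and by 0.20 in the combined fit (adjusted p = 0.000395). Of the genes called between trained and untrained mice, 1 is counted above and not named. Between subregions, 1 of the 83 was called in CA1 against CA3 (1.2%, against 0.988% of all genes), Tbc1d1, with a log2 difference of 0.43. Between CA1 and DG 3 were called (3.61%, against 4.05%), with log2 differences of 0.36 for Wwtr1, 0.30 for Kcnk9 and −0.17 for Rims1.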

How the data were processed

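RNA of 16 libraries was depleted of ribosomal RNA by the authors and sequenced as read pairs. STAR and Salmon are named for mapping and quantification. The deposited signal is a normalized estimated count per gene, and the scaling behind it is not given in the sources used here. The labels name GRCm38, and positions and lengths came from a GENCODE annotation of that build (24464 of 24972 genes matched). Promoter sequences came from RefSeq (GRCm38.p6), with 4 of 6 members matched. One untrained CA3 and one untrained DG library were not analysed here.

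Values entered limma 3.58.1 (R 4.3.3) as log2(value + 2), with a mean-variance trend and robust estimation, for genes reaching 10 in 3 libraries (CA1) or 2 (other fits). All 6 members passed. Each subregion was fitted alone, all were fitted with subregion as a term, and a fit of 6 groups gave subregions and differences of effects. Fold changes are on that log2 scale, and adjusted p-values are Benjamini-Hochberg over all genes tested. The fits were tested on simulated data. Counts behind values are unknown, so no counting interval is given. Libraries of one animal were treated as independent in the combined fits. The labels tie same-numbered libraries of a training group to 1 animal, and over 14 such pairs the correlation of deviations from group means was −0.28 to 0.212.

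Members, lists and tests were chosen with earlier results of these data known. Named were all members, genes of the partner lists called in the comparison described, and the 3 genes of highest Pearson r with each member. One partner gene called between trained and untrained mice is not reported here. Alternatives were other scalings, filters and pseudocounts, no robust estimation, a correction for GC content and length, one fit of all libraries, replicate blocks, covariates and each animal left out.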

Additional observations from a re-analysis of the deposited data

How the results depend on the processing

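Leaving out each animal in turn, the number of members called stayed at 2 in CA1 and in the combined fit and at 0 between CA3 and DG and for differences of training effects. It was 0 to 1 in CA3 (1 without trained replicate 1), 0 to 3 in DG (3 without untrained replicate 3, 0 without each other animal), 0 to 1 between CA1 and CA3 (1 without untrained replicate 1) and 0 to 2 between CA1 and DG (2, Ywhae with Ywhah, without untrained replicate 1). In CA3 one fit of all 16 libraries called 2 members, and both no filter and a floor of 10 across all libraries called 1. In DG those filters each called 2, while no robust estimation, a pseudocount of 0.5 and a correction for GC content and length each called 0. The covariate of sex-linked transcripts and that of neuronal markers (chosen after seeing the data) called 0 in CA1, in DG and in the combined fit. Over all genes they called 6 and 67 in CA1, 47 and 325 in CA3, 6 and 325 in DG and 0 and 51 in the combined fit. Trained and untrained libraries alone each called 0 between CA1 and DG. The correction for GC content and length called 3 members in CA1, 3 in the combined fit and 3 of the 18 differences of training effects, and between CA1 and DG called Ywhab and not Ywhah. Over all genes it called 23 in CA3 and 1296 for CA1 minus DG, against 118 and 404. Upper-quartile rescaling called 4 members in CA1 (Ywhab, Ywhae, Ywhaz and Ywhaq, all lower, while Ywhag and Ywhah lost their calls, adjusted p = 0.36 and 0.162), 6 in DG (all higher), 0 in the combined fit, 0 between CA1 and DG and 9 of those 18. Over all genes it called 9448 in CA1 (77 higher) and 6003 in DG (5988 higher), against 710 and 473. Its shift of the median of all genes was −0.47 in CA1, −0.23 in CA3, 0.40 in DG and −0.14 in the combined fit. The cause of these changes was not tested.

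Within a subregion, trained and untrained mice share only a replicate number. The replicate block called 2 members in CA1, 2 in CA3 (Ywhag and Ywhah, adjusted p = 6.58e-06 and 0.00801) and 1 in DG, and over all genes 559, 1160 and 500, against 710, 118 and 473. The replicate block by animal changed no number of members called in the other fits.

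These log2 values, among those printed by member, changed sign, and with the exception of Ywhag and Ywhah in CA1 none had been called. Under upper-quartile rescaling the trained over untrained values in CA1 were −0.10 for Ywhag, −0.15 for Ywhah, −0.45 for Ywhab, −0.42 for Ywhae, −0.41 for Ywhaz and −0.47 for Ywhaq. In CA3 they were −0.16 for Ywhab, −0.15 for Ywhae, −0.23 for Ywhaz and −0.15 for Ywhaq, in DG 0.30 for Ywhae, and in the combined fit −0.060 for Ywhab, −0.12 for Ywhae, −0.10 for Ywhaz and −0.040 for Ywhaq. The differences of training effects became −0.77 (CA1 minus DG) and −0.51 (CA3 minus DG) for Ywhag and −0.25 (CA1 minus CA3), −0.77 and −0.52 for Ywhah, and Ywhah between CA3 and DG became 0.010. The same rescaling turned Ywhae to −0.72 in CA1 minus DG and −0.45 in CA3 minus DG, Ywhaz to −0.19 in CA1 minus CA3 and −0.83 in CA1 minus DG, and, between CA3 and DG, Ywhab to 0.027, Ywhag to 0.045 and Ywhaz to 0.064. Median-of-ratios rescaling left the members' values nearly as they were. With neuronal markers as a covariate, Ywhag was −0.13 and Ywhaq −0.26 in CA1, Ywhab −0.043, Ywhaq −0.096 and Ywhaz −0.14 in CA3, Ywhaz −0.016 in DG, and Ywhae −0.087 and Ywhaz −0.041 in the combined fit. The sex-linked covariate gave 0.054 for Ywhae in DG. The correction for GC content and length gave 0.040 for Ywhae between CA1 and CA3, 0.032 for Ywhaq between CA1 and DG, −0.044 for Ywhaz in DG and 0.065 for Ywhag in CA1 minus CA3. The replicate block gave −0.018 for Ywhaz in CA3, and by animal 0.050 for Ywhag in CA1 minus CA3. Untrained libraries alone gave 0.077 for Ywhaq between CA1 and DG. Leaving out the first untrained CA3 and the third trained DG library gave −0.011 for Ywhae in the combined fit. With 1 animal left out, values spanned −0.050 to 0.014 for Ywhae between CA1 and CA3, −0.017 to 0.048 for Ywhae in the combined fit, −0.15 to 0.056 for Ywhag and −0.17 to 0.18 for Ywhah in CA1 minus CA3, −0.0051 to 0.28 for Ywhah in CA3 minus DG, −0.082 to 0.022 for Ywhaq between CA1 and DG, −0.034 to 0.071 for Ywhaq in CA1, and for Ywhaz −0.088 to 0.089 in CA3, −0.020 to 0.035 in DG and −0.0056 to 0.053 in the combined fit. The planned addition of pseudogene rows to the members gave no value.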
